A study of Mus musculus with 12 samples.

Results

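The unfolded protein response of the endoplasmic reticulum (ER) was examined through 10 genes: Hspa5, Hsp90b1, Calr, Pdia4, Sdf2l1, Creld2, Manf, Xbp1, Dnajb9 and Herpud1. They were taken by gene symbol from the 55885 genes of the expression table, and all 10 were among the 13815 genes expressed highly enough to be tested. RNA-seq had been done on heart tissue of 12 male mice on a C57BL/6 background (C57BL/6J in the study's methods), 8 weeks old. There were 3 hearts in each of 4 groups. These were Saline (wild type, called untreated in the labels), CDDP (wild type given cisplatin), STING-/- (without cisplatin) and STING-/-+CDDP (knockout mice given cisplatin). Cisplatin, a platinum drug that crosslinks DNA, was given into the peritoneum in doses of 6 mg/kg on day 1, day 8 and day 15, and hearts were collected on day 22. STING is an adaptor in the ER membrane that relays the detection of cytosolic DNA, and the STING-/- mice are a constitutive knockout line, not limited to 1 cell type of the heart.

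The ER folds proteins that are bound for membranes and secretion. When unfolded proteins accumulate there, the membrane sensors IRE1, ATF6 and PERK are set off. IRE1 splices the mRNA of Xbp1 and ATF6 is cut to release a transcription factor, and both raise chaperones and folding enzymes, while PERK slows translation and raises Atf4. Heart muscle depends on the ER both for folding and for the calcium store that drives contraction.

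Expression was given as TPM, a transcript abundance that is scaled for transcript length and to the same total in each heart. Differences between groups were tested by limma on log2(TPM + 1) in 1 model of all 12 hearts, and a gene is said to have risen or fallen only where its Benjamini-Hochberg adjusted p over the 13815 genes was under 0.05. Log2 fold changes are on this scale, with their standard error (SE), and n was 3 hearts per group.

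The targeted gene, Sting1, was at 6.50 to 12.28 TPM in Saline hearts, 5.62 to 22.11 in CDDP, 2.87 to 5.96 in STING-/- and 3.37 to 4.67 in STING-/-+CDDP. Its transcript was thus lower but still measured in the knockout hearts, and 1 of the 6 exceeded the lowest CDDP heart. Hearts also differed in the tissue they held. The summed TPM of 4 genes of the atria (Sln, Myl7, Myl4, Nppa) ran from 310.2 in Saline heart 1 to 38939 in Saline heart 2. In CDDP heart 1 the summed TPM of 6 neutrophil genes was 1096, against at most 89.7 in the other hearts. No marker gene of the 10 cell type lists examined was at 0 in all 12 hearts, and the 8 heart muscle genes summed to between 25421 and 49755 TPM.

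Promoter sequence is shown first, because it is what several of the 10 genes are known to share. The window from 250 bases before to 50 bases after the RefSeq transcription start (GRCm38.p6) was available for 9 of the 10 genes, all but Manf. It was searched on both strands for the ER stress response element (ERSE, which is CCAAT, 9 bases of any kind and CCACG), for ERSE-II (ATTGG, 1 base of any kind and CCACG) and for the unfolded protein response element in the forms TGACGTGA and TGACGTGG. TGACGTGG ends in CGTGG, the reverse complement of the CCACG of both ERSE forms, and ATTGG is that of CCAAT, so the motifs share parts but none contains another whole. The matches stand below with the motif in capitals, read along the strand of the gene, and positions are counted from the start at 0.
Hspa5, ERSE at -65, chr2:34772020-34772048 (+): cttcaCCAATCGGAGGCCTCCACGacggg
Hspa5, TGACGTGA at -157, chr2:34771924-34771949 (+): gcgtagcaaTGACGTGAgttgcggag
Hsp90b1, ERSE at -212, chr10:86705633-86705661 (-): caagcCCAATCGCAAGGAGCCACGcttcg
Hsp90b1, ERSE on the opposite strand at -107, chr10:86705528-86705556 (-): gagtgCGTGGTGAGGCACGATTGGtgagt
Calr, ERSE on the opposite strand at -162, chr8:84847070-84847098 (-): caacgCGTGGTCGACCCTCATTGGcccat
Creld2, ERSE on the opposite strand at -126, chr15:88819515-88819543 (+): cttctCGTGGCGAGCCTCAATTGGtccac
Herpud1, ERSE-II at -52, chr8:94386368-94386396 (+): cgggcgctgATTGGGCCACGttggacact

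An ERSE was thus found in 4 of the 9 windows, and in 39 of all 32851 mouse windows (0.119%). ERSE-II was found in 1 of the 9 and in 12 of all windows (0.0365%). TGACGTGA was found in 1 of the 9 and in 0.441% of all, and TGACGTGG in 0 of the 9 and in 0.676% of all. Several of the 10 genes were already known to share such elements, so these shares are descriptions. The windows of Pdia4, Sdf2l1, Xbp1 and Dnajb9 held none of these letters, which says nothing about the factors that bind there. Pdia4, which had the largest fold change of the 10 genes in STING-/-+CDDP against CDDP, had 3 copies of CCAAT on either strand and 0 copies of CCACG in the 250 bases before its start. These bases are shown with CCAAT and its reverse complement in capitals.
Pdia4, chr6:47813513-47813762 (-): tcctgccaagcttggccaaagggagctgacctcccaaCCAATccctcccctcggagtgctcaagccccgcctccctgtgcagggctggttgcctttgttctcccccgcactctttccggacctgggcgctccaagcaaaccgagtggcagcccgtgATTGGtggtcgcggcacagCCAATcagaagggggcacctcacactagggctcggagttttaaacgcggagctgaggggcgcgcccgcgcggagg

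**Figure D1:**
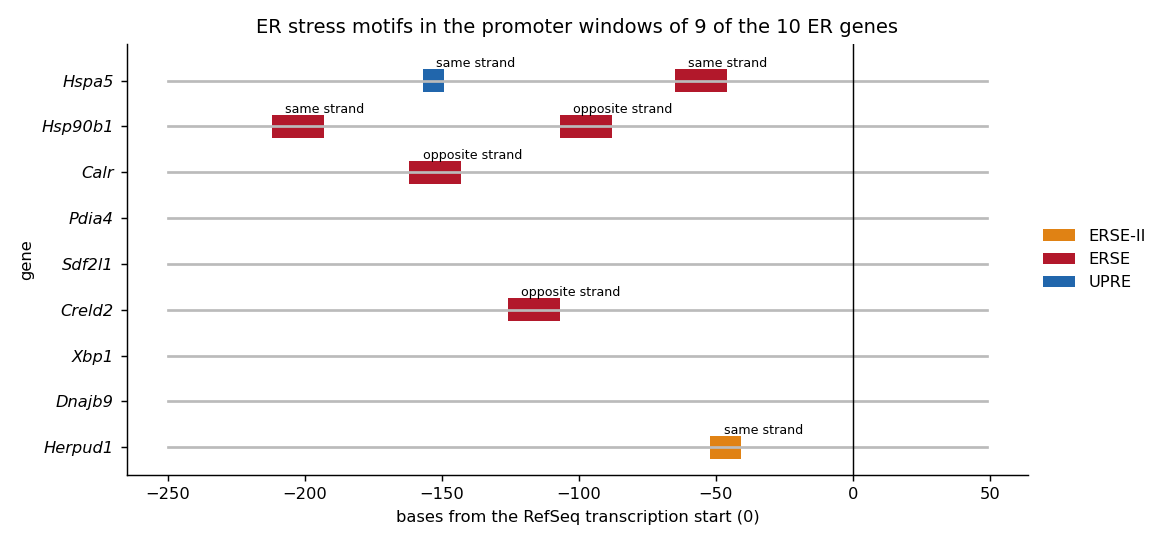
Positions of exact motif matches in the promoter windows of 9 genes, in bases from the RefSeq transcription start (x axis, 0 is the start), with 1 line per gene. Bars mark ERSE, ERSE-II and the unfolded protein response element (UPRE, TGACGTGA), and each is labelled with its strand relative to the gene. All 7 matches lie upstream of the RefSeq start, between -212 and -42.

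In Saline hearts the 10 genes covered a wide range of levels on the TPM scale. Hspa5 was highest with a mean of 198.3 TPM, followed by Calr (187.6), Herpud1 (157.2) and Hsp90b1 (122.9), whose hearts overlapped from each gene to the next. Manf (77.4) lay below Hsp90b1 without overlap, with Xbp1 (50.0) overlapping it. Pdia4 (25.1) and Dnajb9 (23.0) overlapped each other below Xbp1, and Creld2 (15.8) and Sdf2l1 (12.4) were lowest. Over the 12 hearts the ratio of the highest to the lowest TPM was greatest for Herpud1 at 6.64, then Pdia4 at 4.30 and Sdf2l1 at 3.92, and was between 1.73 and 2.25 for the other 7 genes.

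The first question was what cisplatin did to these genes in wild-type hearts. Of the 10 genes, 2 fell in CDDP against Saline and 0 rose, while 10.4% of all tested genes fell, 8.52% rose and 18.9% changed in either direction. At the background share, 1 of 10 genes would have fallen. The median log2 fold change of the 10 was -0.25, beside -0.0032 over all tested genes. Estimates were below 0 for 7 genes (Hspa5, Hsp90b1, Calr, Pdia4, Sdf2l1, Creld2 and Manf) and above 0 for 3 (Xbp1, Dnajb9 and Herpud1), where 49.8% of all tested genes had an estimate above 0. The 7 genes are called the Hspa5 set here, a grouping by these estimates made after the values had been seen. It does not follow location, since Dnajb9, outside it, is an ER co-chaperone as well.

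Pdia4 (ENSMUSG00000025823, chr6:47796141-47813430), a disulfide isomerase of the ER lumen, fell. It was at 25.37, 31.14 and 18.94 TPM in Saline hearts 1 to 3 and at 10.12, 14.81 and 13.62 in CDDP hearts. All 3 CDDP hearts were below all 3 Saline hearts, which among the 10 genes held for Pdia4 and Calr and held for 17.1% of all tested genes. The log2 fold change was -0.91 (SE 0.25, limma adjusted p = 0.0287).

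Calr (ENSMUSG00000003814, chr8:84841850-84846934) encodes calreticulin, a lectin chaperone that also binds calcium in the ER lumen. It was at 228.97, 199.61 and 134.33 TPM in Saline hearts and at 115.23, 112.54 and 115.84 in CDDP hearts. The groups did not overlap, and the CDDP hearts were within 2 TPM (SD 1.76) of their mean of 114.5. The log2 fold change was -0.67 (SE 0.20, limma adjusted p = 0.0367). The pseudogene Calr-ps was listed at 0 in 11 of 12 hearts and at 0.22 TPM in the other. These levels cannot show how reads shared by Calr-ps and Calr were assigned.

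Both calls were close to the threshold. Pdia4 lost its call without Saline heart 1 (adjusted p = 0.0847), Saline heart 2 (0.0786), CDDP heart 1 (0.0841) or CDDP heart 3 (0.0512), with log2 fold changes between -0.95 and -0.74. Calr lost its call without Saline heart 1 (log2 fold change -0.51, limma adjusted p = 0.143), Saline heart 2, any 1 of the CDDP hearts or STING-/- heart 3 (adjusted p between 0.0504 and 0.0834). Neither passed when only the 6 hearts compared were fitted (adjusted p = 0.0679 for Pdia4 and 0.102 for Calr), and the directions held throughout. With hearts weighted by their quality (limma arrayWeights), Calr kept its call and Pdia4 lost it (-0.79, adjusted p = 0.0576).

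The other 5 genes of the Hspa5 set had estimates below 0 with overlapping hearts. Sdf2l1, a partner of ER-resident DnaJ proteins that assist Hspa5, had a log2 fold change of -0.47 (SE 0.26, limma adjusted p = 0.228). Hsp90b1, the ER form of Hsp90 also known as GRP94, had -0.33 (SE 0.16, limma adjusted p = 0.178), and it passed without Saline heart 3 (-0.51, adjusted p = 0.0395). Hspa5, the main Hsp70 chaperone of the ER (BiP), had -0.28 (SE 0.18, limma adjusted p = 0.288). Manf, an ER stress-induced protein that binds Hspa5 and can be secreted, had -0.22, and Creld2, an ER protein with EGF-like repeats, had -0.039.

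Xbp1, the transcription factor whose mRNA IRE1 splices, was at 46.08, 63.20 and 40.87 TPM in Saline and 68.23, 63.04 and 76.26 in CDDP. A gene-level TPM does not separate its spliced from its unspliced mRNA. The groups overlapped only through Saline heart 2 (63.20) and CDDP heart 2 (63.04), and the log2 fold change was 0.48 (SE 0.20, limma adjusted p = 0.112).

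Dnajb9, a DnaJ co-chaperone that keeps IRE1 inactive together with Hspa5, was at 18.48, 30.21 and 20.19 TPM in Saline and 26.34, 33.82 and 37.62 in CDDP. Here too Saline heart 2, the heart with the atrial genes at 38939 TPM, overlapped the CDDP hearts. The log2 fold change was 0.50 (SE 0.20, limma adjusted p = 0.0941). Without Saline heart 2, both Dnajb9 (0.71, adjusted p = 0.0207) and Xbp1 (0.66, adjusted p = 0.0398) passed the test. With all hearts, both also passed under scaling by the median of ratios (adjusted p = 0.0136 for Dnajb9 and 0.0118 for Xbp1) and by quantiles, and Dnajb9 passed with hearts weighted by quality (0.69, adjusted p = 0.0181). The part of the atrial tissue in these values was not tested.

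Herpud1 (ENSMUSG00000031770, chr8:94386438-94395377), an ER membrane protein of the machinery that removes misfolded proteins, had the widest spread. It was at 77.42, 228.53 and 165.58 TPM in Saline hearts and at 133.60, 514.16 and 414.37 in CDDP hearts. CDDP hearts 2 and 3 exceeded every Saline heart, and CDDP heart 1, the heart with neutrophil genes at 1096 TPM, lay between Saline hearts. The log2 fold change was 1.09 (SE 0.46, limma adjusted p = 0.117) with all hearts and 1.68 (adjusted p = 0.0107) without CDDP heart 1, where Herpud1 was the only 1 of the 10 genes to pass. It also passed with hearts weighted by quality (1.78, adjusted p = 0.0119).

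**Figure D2:**
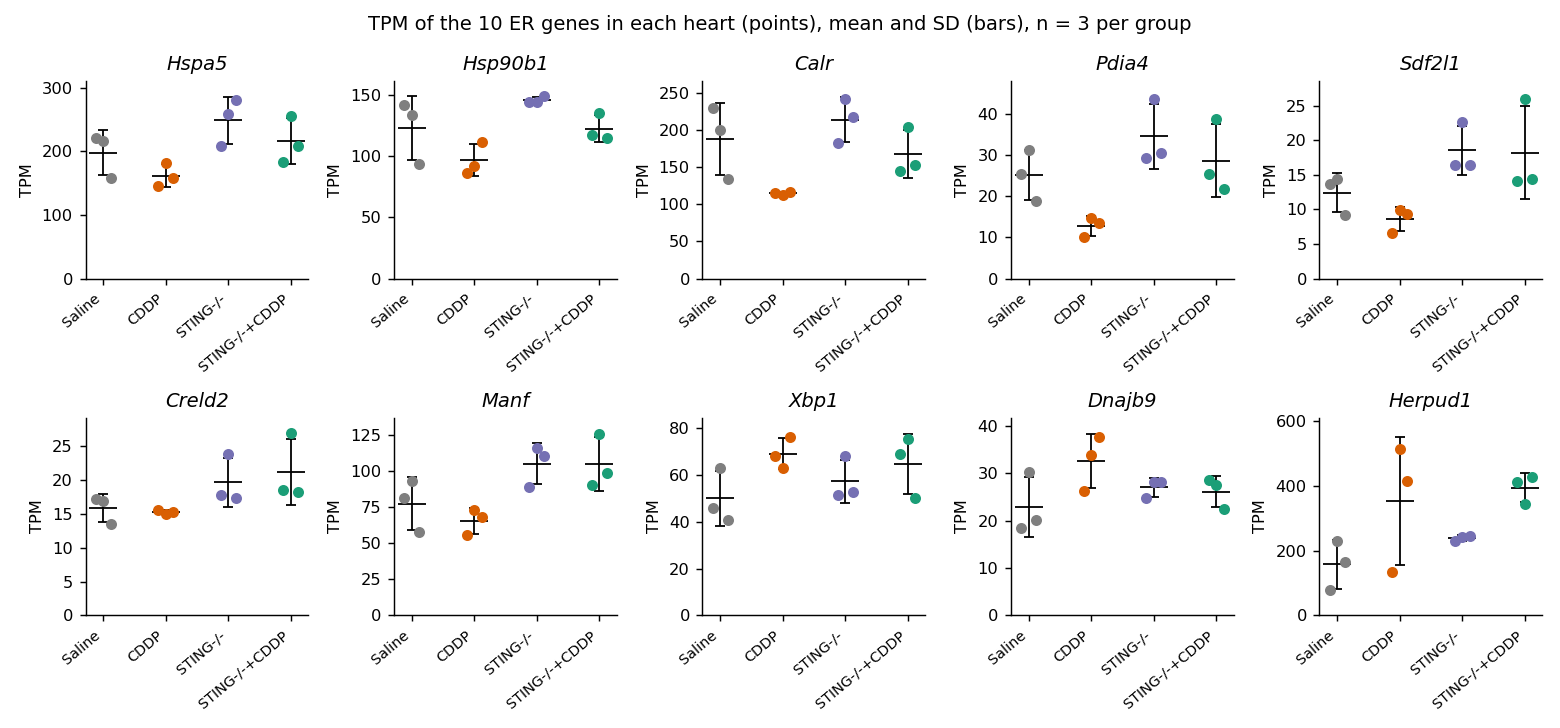
TPM of each of the 10 genes (y axis, linear from 0) in the 12 hearts, by group. Points are hearts 1, 2 and 3 from left to right, and horizontal lines with bars give the mean and SD of 3 hearts. Calr and Pdia4 are lower in every CDDP heart than in every Saline heart, and the first CDDP heart is the low Herpud1 value at 133.6 TPM.

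Within groups, single hearts were lowest or highest for many of the 10 genes. Saline heart 3 was the lowest of its group for 8 of the 10 genes and Saline heart 2 the highest for 6. Among CDDP hearts, heart 1 was the lowest for 7 genes. STING-/- heart 1 was the lowest of its group for 8, and STING-/-+CDDP heart 2 the highest for 8. These shifts are part of the spread that each test was set against.

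The next question was whether the hearts of cisplatin-treated mice differed with the knockout. None of the 10 genes passed in STING-/-+CDDP against CDDP (limma, 0 of 10), where 1.22% of all tested genes did. At an unadjusted p under 0.05, 6 of the 10 were higher and 0 lower, and 5.94% of all tested genes were higher at that level. In 7 of the 10, all 3 STING-/-+CDDP hearts were above all 3 CDDP hearts, which held for 7.12% of all tested genes. The median log2 fold change was 0.42, beside -0.095 over all tested genes, with 8 of the 10 estimates above 0 (39.6% of all tested genes), and it stayed between 0.33 and 0.56 over 21 alternative settings.

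The 7 genes without overlap were those of the Hspa5 set. That set was formed by estimates below 0 in CDDP against Saline, and the same CDDP hearts enter this comparison. Its genes thus lean toward higher values here, and the match is no separate support. Pdia4 was at 25.43, 38.70 and 21.85 TPM in STING-/-+CDDP hearts, all above the highest CDDP heart at 14.81. Its log2 fold change was 1.07 (SE 0.25, limma adjusted p = 0.0589), and the adjusted p was between 0.0534 and 0.201 when 1 heart was left out. The adjusted p was under 0.05 under 5 of 11 other settings, among them scaling by the median of ratios (0.0139) and quantile normalization (0.0175).

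Sdf2l1 was at 6.62, 9.94 and 9.37 TPM in CDDP and at 14.17, 25.98 and 14.46 in STING-/-+CDDP. Its log2 fold change was 0.96 (SE 0.26, limma adjusted p = 0.0859). Manf was at 55.68, 72.76 and 67.88 TPM in CDDP and at 90.23, 125.55 and 98.62 in STING-/-+CDDP, a log2 fold change of 0.67 (SE 0.20, limma adjusted p = 0.109). STING-/-+CDDP heart 2 was the highest for all 3 genes, and the other 2 hearts of that group also lay above the CDDP hearts.

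The chaperones Hspa5, Calr and Hsp90b1 showed the same order with smaller differences. Hspa5 (ENSMUSG00000026864, chr2:34771970-34777547) was at 145.47, 181.35 and 158.00 TPM in CDDP and at 183.93, 255.62 and 209.21 in STING-/-+CDDP. The nearest hearts of the groups were thus less than 3 TPM apart. The log2 fold changes were 0.41 (SE 0.18) for Hspa5, 0.53 (SE 0.20) for Calr, 0.34 (SE 0.16) for Hsp90b1 and 0.42 (SE 0.18) for Creld2, with limma adjusted p between 0.178 and 0.267.

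Xbp1 and Dnajb9 had estimates below 0, at -0.11 and -0.30, with overlapping hearts. Herpud1 was at 409.95, 343.53 and 427.53 TPM in STING-/-+CDDP, and its log2 fold change of 0.36 (SE 0.46) became -0.24 without CDDP heart 1. The sign for Xbp1 also turned under scaling by the median of ratios (0.011) and by quantiles (0.043).

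**Figure D3:**
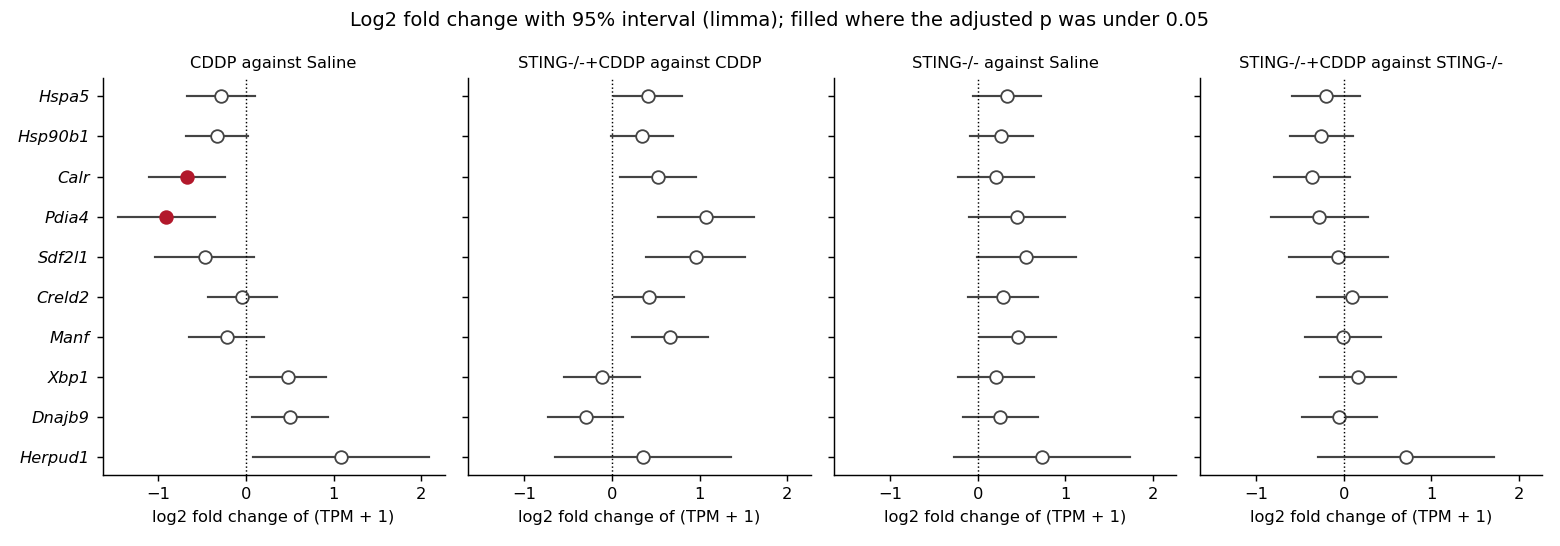
Log2 fold change of TPM + 1 (x axis) for the 10 genes in 4 comparisons, with 95% confidence intervals from limma as lines. Filled points passed an adjusted p of 0.05, which were Pdia4 and Calr in CDDP against Saline. The 7 genes of the Hspa5 set lie right of 0 in STING-/-+CDDP against CDDP, and all 10 genes lie right of 0 in STING-/- against Saline.

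Knockout and wild-type hearts were also compared without cisplatin. In STING-/- against Saline 0 of the 10 genes passed (limma, adjusted p = 1 for each), as did 0.0724% of all tested genes, and 1 gene, Manf, was higher at an unadjusted p under 0.05 (1.48% of all tested genes). All 10 estimates were above 0, where 50.3% of all tested genes were, and the median was 0.31 beside 0.0017. In 4 of the 10 genes (Creld2, Herpud1, Hsp90b1 and Sdf2l1) every STING-/- heart exceeded every Saline heart, which held for 2.76% of all tested genes. Leaving out Saline heart 3, the low one, brought the median to 0.18 and the estimate of Calr to -0.011. In the same comparison 5 of 5 red blood cell genes were lower without overlap at an unadjusted p under 0.05 (0 passed, median -3.01), with summed TPM of 4146 to 9317 in Saline and 263.7 to 1465 in STING-/-. All 3 tested adipocyte genes were higher at that level (0 passed, median 2.16). The 4 atrial genes also had estimates above 0, with 0 at that level and a median of 4.16. Their summed TPM was 310.2, 338.7 and 38939 in Saline, the last in heart 2, and 2994 to 12835 in STING-/-. The part of red blood cells, adipocytes and atrial tissue in the values of the 10 genes was not tested.

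Hsp90b1 was at 144.41, 144.49 and 148.98 TPM in STING-/- against 141.85, 133.46 and 93.44 in Saline. Sdf2l1 was at 16.47, 22.68 and 16.45 TPM against 13.62, 14.38 and 9.16. Their log2 fold changes were 0.27 (SE 0.16) and 0.55 (SE 0.26). Herpud1 was at 229.80, 240.40 and 246.19 TPM in STING-/- hearts, just above the highest Saline heart at 228.53.

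These 2 genotype comparisons share no hearts, so their average was also tested, as a comparison added after the values had been seen. Over both treatments 0 of the 10 genes passed in STING-/- against wild type (limma), where 0.181% of all tested genes passed. At an unadjusted p under 0.05, 7 of 10 were higher and 0 lower, and 3.76% of all tested genes were higher at that level. The 7 were again the Hspa5 set, which had been formed from the Saline and CDDP hearts that also enter this average. They were led by Pdia4 (log2 fold change 0.76, SE 0.18, limma adjusted p = 0.111), Sdf2l1 (0.76, SE 0.18, limma adjusted p = 0.122) and Manf (0.56, SE 0.14, limma adjusted p = 0.138). Xbp1 (0.049) and Dnajb9 (-0.021) were near 0, with 95% intervals of -0.26 to 0.36 and -0.32 to 0.28.

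Cisplatin in knockout hearts was compared within the genotype. Of the 10 genes 0 passed in STING-/-+CDDP against STING-/- (limma) and 0 had an unadjusted p under 0.05, while 0.934% of all tested genes passed and 13.5% had such a p. The median log2 fold change of the 10 was -0.057, beside -0.11 over all tested genes, a shift of all genes that scaling by the median of ratios or quantiles removed. Herpud1 was higher in all 3 treated knockout hearts than in all 3 untreated ones (no overlap upward in 7.28% of tested genes), with a log2 fold change of 0.71 (SE 0.46, limma adjusted p = 0.536). When only these 6 hearts were fitted, leaving out the widely spread wild-type groups, Herpud1 passed (adjusted p = 0.0317). Hsp90b1 was lower in all 3 (no overlap downward in 16.9% of tested genes), with -0.25 (SE 0.16, limma adjusted p = 0.535). Calr had -0.36 and Pdia4 -0.28, with overlapping hearts.

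Whether the effect of cisplatin differed with genotype was tested as an interaction, and 0 of the 10 genes passed (limma, 0 also at an unadjusted p under 0.05). Of all tested genes 0.00724% passed, and 11.7% had an unadjusted p under 0.05. The estimate, the change in STING-/- minus that in wild type, was largest for Pdia4 at 0.63 (95% interval -0.15 to 1.41, limma adjusted p = 0.510) and most negative for Dnajb9 at -0.55 (95% interval -1.16 to 0.052, limma adjusted p = 0.463). The fall of Pdia4 and Calr in wild-type hearts is therefore not shown to differ from their change in knockout hearts.

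Correlations between the 10 genes were compared within the Hspa5 set, within Xbp1, Dnajb9 and Herpud1, and between the 2 sets. Over the 12 hearts, the Pearson correlation of log2(TPM + 1) between the genes of the Hspa5 set was 0.61 to 0.96 in their 21 pairs, with a median of 0.86. The highest was between Sdf2l1 and Manf. The 3 pairs of Xbp1, Dnajb9 and Herpud1 had 0.48 to 0.80, and the 21 pairs between the sets had -0.35 to 0.43 with a median of -0.029. All genes of a heart share its library and its tissue, and the sets were formed from the Saline and CDDP hearts used here. These values are therefore descriptions.

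After the group means were subtracted, the Hspa5 set had 0.54 to 0.96 with a median of 0.79. The 3 pairs of Xbp1, Dnajb9 and Herpud1 had 0.13 to 0.73 with a median of 0.72, and the pairs between the sets had -0.28 to 0.79 with a median of 0.37. The sets thus overlapped in these values: Xbp1 had 0.79 with Pdia4 and 0.13 with Herpud1.

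**Figure D4:**
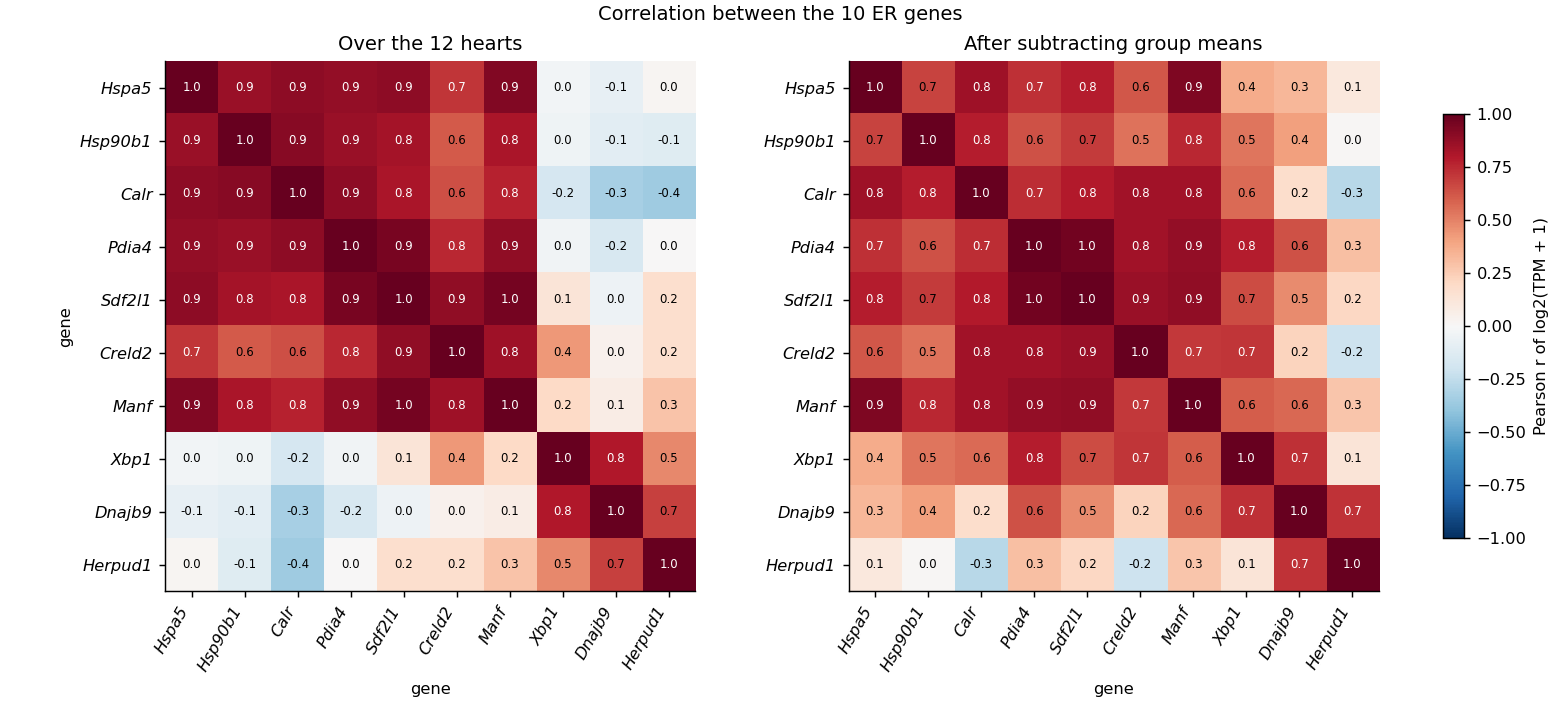
Pearson correlation between the 10 genes (rows and columns), over the 12 hearts on the left and after subtracting the group means on the right, coloured from -1 (blue) to 1 (red). The 7 genes from Hspa5 to Manf form a block of 0.61 to 0.96 on the left, and Xbp1, Dnajb9 and Herpud1 form another of 0.48 to 0.80.

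To find genes of like pattern, the 10 genes were each standardised over the 12 hearts and averaged. This mean was below 0 in all CDDP hearts (-1.10 to -0.27), between -1.15 and 0.32 in Saline, 0.14 to 0.98 in STING-/- and -0.033 to 1.09 in STING-/-+CDDP. The tested gene most correlated with it was Syvn1 (r = 0.94, 12 hearts), the ubiquitin ligase of ER-associated degradation. Syvn1 was at 6.68 to 10.12 TPM in Saline, 7.33 to 9.71 in CDDP, 10.45 to 11.93 in STING-/- and 9.82 to 14.92 in STING-/-+CDDP, so every knockout heart without cisplatin exceeded every Saline heart. It was followed by Tepsin (0.92), Zfp526 (0.91), Rab4a (0.89), Ahdc1 (0.88), Insyn1 (0.88), Yif1a (0.87), Ube2m (0.87), L1cam (0.86) and Pdxk (0.86). The ranking by deviations from group means, led by Ywhae (0.97), shared 0 of these 10 genes, so the names depend on whether group differences are kept.

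The wider ER pathway did not move as 1 block in CDDP against Saline. Beside the list counts below stand the shares of all tested genes in this comparison, 8.52% risen and 10.4% fallen. The PERK and ATF4 arm was on the side opposite to the Hspa5 set, with 2 of 7 genes risen, 0 fallen and a median log2 fold change of 0.76. Atf4, the transcription factor of this arm, was at 53.15, 81.17 and 58.36 TPM in Saline and 164.22, 93.54 and 155.09 in CDDP, and rose by 1.07 (SE 0.24, limma adjusted p = 0.0117). Ppp1r15a (GADD34), which restores translation, rose by 1.31 (SE 0.19, limma adjusted p = 0.00159). Both fell in STING-/-+CDDP against CDDP, Atf4 by 1.15 (adjusted p = 0.0462) and Ppp1r15a by 1.02 (adjusted p = 0.0341), the only genes of the ER lists to pass in that comparison, with 2 of 7 fallen (0.854% of all tested genes), 0 risen and a median of -0.72. The 2 adjusted p-values were close to the threshold. Over all genes, the 168 calls in STING-/-+CDDP against CDDP became 11 to 380 with 1 heart left out. Whether Atf4 and Ppp1r15a kept their calls there was not examined. Atf4 is also part of responses to other stresses. Its target Ddit3 (CHOP) was at 25.75 to 47.73 TPM in Saline and 29.01 to 61.42 in CDDP, which overlap.

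Of 12 other disulfide bond enzymes 2 fell and 0 rose in CDDP against Saline, near the 10.4% of all tested genes that fell. The list had 4 estimates above 0 and a median of -0.22. The enzymes that fell were Pdia5 (log2 fold change -0.97, SE 0.21, limma adjusted p = 0.00903) and Pdia6 (-0.68, SE 0.18, limma adjusted p = 0.0238), which belong to the same family as Pdia4. Pdia6 was at 77.63, 71.12 and 51.21 TPM in Saline and 39.72, 37.69 and 44.46 in CDDP, without overlap. Neither passed in STING-/-+CDDP against CDDP, where the list had 0 of 12 called and a median of 0.0065.

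ER-associated degradation, the pathway of Herpud1, had 5 of 20 risen, 0 fallen and a median of 0.26 in CDDP against Saline. The largest of these were Nploc4 (0.75), Ube2g2 (0.65), Selenok (0.58) and Herpud2 (0.54), the first an adaptor of the p97 ATPase, the second a ubiquitin-conjugating enzyme and the last a relative of Herpud1. Beside 8.52% of all tested genes risen, 3 of 14 other ER chaperones and co-chaperones rose and 0 fell, with a median of 0.041. These were Sec63 (0.83), Dnajc3 (0.82) and Dnajc1 (0.65), all DnaJ proteins, as is Dnajb9. The medians of these lists in STING-/-+CDDP against CDDP were -0.32 and -0.14 with 0 called.

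Of 7 sensors and their processing enzymes 1 rose in CDDP against Saline, beside 8.52% of all tested genes, and the list's median was 0.15. The gene that rose was Rtcb, the ligase that joins the spliced Xbp1 mRNA (0.58, SE 0.16, limma adjusted p = 0.0285). Ern1, which encodes IRE1, had 0.61 (SE 0.24, limma adjusted p = 0.104). None of 11 glycoprotein folding genes passed in any comparison (Ost4 -0.043 and Dad1 0.059 in CDDP against Saline), nor did any of 14 translocon and signal peptidase genes (Spcs1 -0.0066 and Ssr4 0.26), with medians of 0.026 and 0.23. Of 15 heat shock genes that act outside the ER, 5 rose and 1 fell in CDDP against Saline, with a median of 0.16. Hspa1b (2.75), Hspa1a (2.52), Bag3 (0.69) and Hspa8 (0.51) were the largest, all with proteins of the cytosol. The gene that fell was Hspe1 (-0.45, limma adjusted p = 0.0409), which like Hspd1 of the same list encodes a mitochondrial chaperonin.

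**Figure D5:**
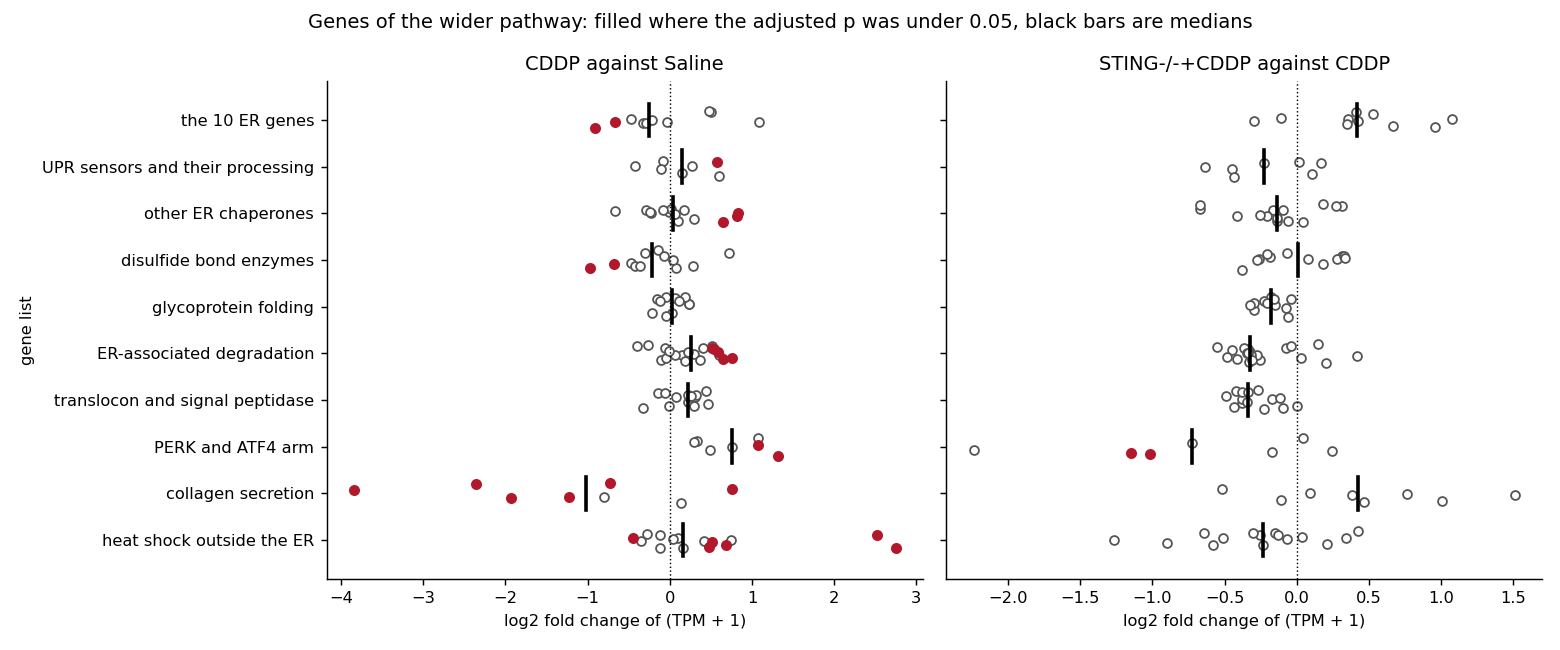
Log2 fold change of TPM + 1 (x axis) of the tested genes of 10 lists (y axis) in CDDP against Saline (left) and STING-/-+CDDP against CDDP (right), on separate scales. Each point is a gene, filled where the adjusted p was under 0.05, and black bars are list medians. The PERK and ATF4 arm has its median at 0.76 on the left and -0.72 on the right, and the 10 ER genes have theirs at -0.25 and 0.42.

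Several lists of non-muscle genes held falls in CDDP against Saline beside Pdia4 and Calr, while other lists had only estimates above 0. Of 8 collagen secretion genes 5 fell and 1 rose in CDDP against Saline, with a median of -1.01, among them Serpinh1, the collagen chaperone of the ER, at 147.75 to 260.44 TPM in Saline and 72.25 to 106.23 in CDDP (log2 fold change -1.23, SE 0.25, limma adjusted p = 0.00771). The largest changes were in Col3a1 (-3.85), Col1a1 (-2.36) and Col1a2 (-1.94). Macrophage markers fell in 5 of 6, with summed TPM of 404.8 to 514.2 in Saline and 115.5 to 236.4 in CDDP. Endothelial markers fell in 3 of 6, with summed TPM of 1339 to 2249 in Saline and 832.4 to 976.8 in CDDP.

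Fibroblast markers fell in 4 of 7, among them Col1a1 and Col1a2, which are also in the collagen secretion list, while their summed TPM overlapped (755.5 to 1846 in Saline and 984.0 to 2111 in CDDP). Red blood cell genes fell in 5 of 5, from 4146 to 9317 TPM in Saline to 41.9 to 1271 in CDDP, and smooth muscle and pericyte markers in 1 of 5. In whole tissue, fewer cells of a type and less RNA per cell cannot be told apart, and the part of these cell types in the lower Pdia4 and Calr was not tested. Among heart muscle genes 1 of 8 rose and 1 fell, with 1 estimate above 0, 7 below 0 and a median of -0.19. Of these genes, Actc1 was at 5036 to 7824 TPM in Saline and at 186.8 to 1067 in CDDP, without overlap.

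No marker of these cell types passed in STING-/-+CDDP against CDDP (0 called by limma), and neither did any gene of the Hspa5 set. The 7 genes of the Hspa5 set were higher without overlap (7.12% of all tested genes). So were 1 of 6 endothelial, 1 of 5 smooth muscle and pericyte and 1 of 8 heart muscle genes. Another heart muscle gene was lower without overlap (2157 of 13815 tested genes). Macrophage, fibroblast and red blood cell markers had 0 without overlap. Summed macrophage markers were at 159.1 to 309.1 TPM and endothelial markers at 1159 to 1247 in STING-/-+CDDP, the latter above all CDDP hearts and the former overlapping them. The part of endothelial cells in the higher Hspa5 set was not tested. Of neutrophil, B and plasma cell, adipocyte and atrial markers, 0 passed in either comparison.

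Other genes with an ERSE were called at about the share of all tested genes. Beside the 4 members, 12 other tested genes held an ERSE in their window. In CDDP against Saline 1 of the 12 rose (Dnajc3, 0.82) and 2 fell (Pdia6, -0.68, and Adcy3, -0.75), where 8.52% of all tested genes rose and 10.4% fell. The median of the 12 was -0.0052. Of the 4 members with an ERSE, Calr fell and Hspa5, Hsp90b1 and Creld2 did not pass. In STING-/-+CDDP against CDDP the 12 had 0 called (1.22% of all tested genes), a median of 0.021 and 6 estimates above 0. Their estimates ran from -0.67 (Dnajc3) to 0.57 (Acacb), with Syvn1 at 0.42 and Adcy3 at 0.37. Hspa5, Hsp90b1, Calr and Creld2 were at 0.34 to 0.53, within that range.

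Some reads may be shared with neighbours on the genome, as the table does not state whether reads were counted by strand. Counting by strand would not separate neighbours on the same strand. Manf overlaps Rbm15b on the same strand (4.53 to 7.42 TPM) and Dcaf1 on the opposite strand (4.33 to 12.67 TPM). Hsp90b1 overlaps 1810014B01Rik on the opposite strand (1.48 to 26.05 TPM) and Gm15344 on the same strand (at most 2.12 TPM). Herpud1 overlaps the antisense gene Gm15890, which was at no more than 0.71 TPM in any heart.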

How the data were processed

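RNA was prepared from heart tissue with TRIzol and sequenced on Illumina libraries. Per the labels and file headers, the authors deposited a gene-level table of TPM with 2 decimals, whose columns sum to 999999 to 1000001. The submitters' processing notes name fastp, HISAT, RSEM and GRCm38.p5, with no versions given in the sources used here. TPM keep no read counts, so depth is unknown and no counting intervals are given. Columns of group means were not used. The 6 mice per group of the study exceed the 3 hearts sequenced.

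Tested were the 13815 of 55885 genes that reached 1 TPM in 3 or more hearts, on log2(TPM + 1), which understates changes of low genes. limma 3.58.1 (R 4.3.3; lmFit, contrasts.fit, eBayes with trend) was fitted to 12 hearts with 8 residual degrees of freedom, with two-sided p-values adjusted by Benjamini-Hochberg. The procedure was tested on simulated data. Positions came from GENCODE M21 (GRCm38), and promoter windows from RefSeq. Their starts can differ, and the ERSE of Hspa5 lies upstream of the RefSeq start but inside the GENCODE span of the gene.

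The 10 genes and all lists were chosen with earlier results of these data known. All 10 were named. For each other list, calls were counted and up to 4 called genes of largest change named, or 2 of the highest TPM where none was called. Ddit3, Ern1 and further genes were named after their values were seen. The labels give no batch, and a shared heart number marks no shared animal, so the replicate number was a block only in an alternative. Other alternatives were the pseudocount (0.1), filters (none or TPM 5), scaling by median of ratios, quantiles or without mitochondrially encoded genes, sample weights, eBayes without trend, the compared groups alone, a minimum absolute log2 fold change of 1, and leaving out each heart.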

Additional observations from a re-analysis of the deposited data

How the results depend on the processing

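The number of the 10 genes called in CDDP against Saline was 2, and became 0 with no filter on low values, 0 with only the groups compared, 0 with a fold threshold of 1 on the log2 scale, 4 with median of ratios scaling, 5 with quantile normalization, and 0 to 3 when 1 heart was left out. With arrayWeights it was 3, which were Calr, Dnajb9 and Herpud1. Calls over all genes moved as well, from 2610 of 13815 to 3810 of 13747 with median of ratios, 3904 of 13815 with quantiles and 2939 of 13815 with arrayWeights. They were 2086 of 27721 with no filter, 822 of 13815 with only the groups compared and 1106 of 13815 with the fold threshold. With 1 heart left out they numbered 1241 to 2559. For STING-/-+CDDP against CDDP the number of the 10 genes called was 0. It became 1 with a filter at TPM 5 (246 of 9427 over all genes), 3 with median of ratios, 4 with quantiles, 1 without mitochondrially encoded genes (287 of 14361) and 1 with the replicate block. For STING-/-+CDDP against STING-/- it was 0 and became 1 with only the groups compared (204 of 13815 over all genes). In the added average of STING-/- against wild type it was 0, and became 2 with median of ratios (59 of 13747 over all genes) and 3 with quantiles (69 of 13815). Scaling removed a shift of -0.11 in the median of all genes in STING-/-+CDDP against STING-/- and raised the share of higher calls in STING-/-+CDDP against CDDP from 29.8% (168 calls) to 42.2% (651) with median of ratios and 46.8% (671) with quantiles, and in STING-/-+CDDP against STING-/- from 27.1% (129) to 51.0% (251) and 55.9% (297).

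Signs turned for the following estimates. Xbp1 in STING-/-+CDDP against CDDP became 0.011 (median of ratios), 0.043 (quantiles) and 0.043 (arrayWeights), and Herpud1 -0.017 (arrayWeights). For STING-/-+CDDP against STING-/-, Dnajb9 became 0.083, 0.062 and 0.027, Sdf2l1 0.068, 0.047 and 0.082, and Manf 0.13, 0.027 and 0.065 under the same 3 settings in that order, and Manf 0.012 without mitochondrially encoded genes. In STING-/- against wild type over both treatments, Dnajb9 became 0.034, 0.050 and 0.052 under these settings and 0.030 without mitochondrially encoded genes. With 1 heart left out, ranges that crossed 0 were as follows. In CDDP against Saline, Creld2 had -0.14 to 0.021. Herpud1 had -0.24 to 0.73 and Xbp1 -0.22 to 0.062 in STING-/-+CDDP against CDDP. In STING-/- against Saline, Calr had -0.011 to 0.37. Sdf2l1 had -0.34 to 0.083, Manf -0.15 to 0.091, Creld2 -0.078 to 0.24 and Dnajb9 -0.12 to 0.054 in STING-/-+CDDP against STING-/-. As interactions, Hspa5 had -0.048 to 0.23, Hsp90b1 -0.038 to 0.26, Herpud1 -0.97 to 0.065 and Creld2 -0.040 to 0.27. Over both treatments, Dnajb9 had -0.092 to 0.082 and Xbp1 -0.016 to 0.14. The causes were not tested.

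The replicate numbers did not pair hearts, with correlations of same-numbered deviations of -0.33 to 0.26 in 18 pairs. With the replicate block, calls over all genes numbered 2175 beside 2610 in CDDP against Saline and 67 beside 168 in STING-/-+CDDP against CDDP, where Pdia4 passed (adjusted p = 0.0442). With only the groups compared these counts were 822 and 38. With 3 hearts a group, a median SE of 0.216 on the log2 scale limits what could be called, and TPM give no depth.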
